A study of Mus musculus with 24 samples.

Results

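Cytochrome c oxidase (complex IV) and ATP synthase (complex V) close the respiratory chain of mitochondria, and most of their subunits are encoded in the nucleus. The genes described here are those whose symbol starts with Cox or Atp5, leaving out 2 symbols that end in -ps. They number 42 of 10709 genes listed in either deposited table: 41 of 10393 at 16 h and 39 of 7723 at 72 h, with 38 in both. By function they are 14 complex IV subunits, 17 complex V subunits, 10 factors that assemble complex IV or join it to other complexes, and Cox6c2, which the GENCODE annotation types as a processed pseudogene. Cox4i2, Cox11 and Cox18 are listed at 16 h alone and Cox6c2 at 72 h alone, and every member passed the filter on low counts in its table.

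RNA came from heart tissue of wild-type mice, a genotype that all groups share, and the labels state neither strain, sex nor age. The groups at 16 h after treatment were doxorubicin at 25 mg/kg with hesperitin (DOXH), doxorubicin alone (DOX), hesperitin alone at 10 mg/kg per day (H) and vehicle (V). At 72 h the groups used were DOX and V. Each group had 3 libraries. Doxorubicin is an anthracycline used against cancer that injures the heart, and hesperitin is a citrus flavanone. The labels do not say whether a library is 1 heart or a pool, and the p-values therefore cover only how these samples spread. The heart is bulk tissue, in which fewer cells of a type and less RNA per cell cannot be told apart.

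Complex IV takes electrons from cytochrome c and passes them to oxygen, pumping protons as it does so. Its catalytic core is made in the mitochondrion from mt-Co1, mt-Co2 and mt-Co3, while the nuclear subunits surround the core, and heme A and copper must be inserted by dedicated factors. Complex V lets protons back through a ring of c subunits in the inner membrane, which turns a stalk inside the F1 head where ATP is made. Heart muscle beats on ATP from this source, and it carries muscle forms of several complex IV subunits (Cox6a2, Cox7a1 and Cox8b) beside the forms found in most tissues (Cox6a1, Cox7a2 and Cox8a).

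The libraries held 9255651 to 19869050 counts at 16 h and 16607805 to 20587578 at 72 h, of which the members took 1.72% to 2.23%. All 15 cardiomyocyte markers were listed at both times. Levels are CPM, counts relative to library size, scaled by TMM factors, which set libraries level by the bulk of their genes. This scaling matters here: with library totals alone, the median log2 change of all genes in DOX against V moved up by 0.20 at 16 h and by 0.42 at 72 h. The 20 most abundant genes took 42.3% to 44.4% of counts in DOX hearts at 72 h, against 52.5% to 54.8% in V hearts. Directions below are therefore relative to the bulk of genes. Calls below are those with TMM factors unless another scaling is named. With library totals, 15 of the 39 negative changes at 16 h turned positive, none of them a call, and so did 20 of the 29 at 72 h, 5 of them calls. Depth and 3 libraries per group limit what small changes can be detected. Annotated exons of 15 of the 42 members overlap exons of another gene on the opposite strand, and no source says whether the counting used strand. Among them are Atp5pb (Wdr77 and Gm42890), Cox5a (Gm26631), Atp5d (Cbarp), Cox6a2 (Itgad) and Cox6c (Vps13b). Counts of Atp5pb and Cox5a, among others, were fractional in all 18 libraries.

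At 16 h, 20 of 41 members fell in DOX hearts against V hearts and 0 rose (edgeR quasi-likelihood test, Benjamini-Hochberg adjusted p under 0.05 over all 10393 genes). Of all genes tested, 16.6% fell and 15.6% rose. At an unadjusted p under 0.05, 23 of 41 members were lower and 0 higher, against 4716 of all 10393 genes in either direction. DESeq2 and limma voom each called 0 members higher. The median log2 change over the 41 members was -0.20, against 0.02 over all genes. In 32 of 41 members each DOX library lay below each V library, and 0 lay above, against 28% and 28.4% of all genes. By class, the falls were 6 of 14 complex IV subunits, 10 of 17 complex V subunits and 4 of 10 assembly factors with TMM factors. With library totals alone they were 1, 2 and 1, namely Cox6a1, Atp5g1, Atp5pb and Cox10, and Cox15 was called higher. With that scaling 5307 of all 10393 genes had an unadjusted p under 0.05 in either direction. The calls also thinned when 1 library was left out: 10 members fell without V replicate 1, 12 without DOX replicate 3, 13 without DOX replicate 1, V replicate 2 or V replicate 3, and 14 without DOX replicate 2. The calls over all genes thinned as well, to between 1928 and 2409 in either direction, against 3352 with all libraries. In all, 10 members were called in each of these fits: Cox10, Cox19, Cox20, Cox6a1, Cox8a, Cox5a, Atp5pb, Atp5g1, Atp5d and Atp5g3.

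**Figure D1:**
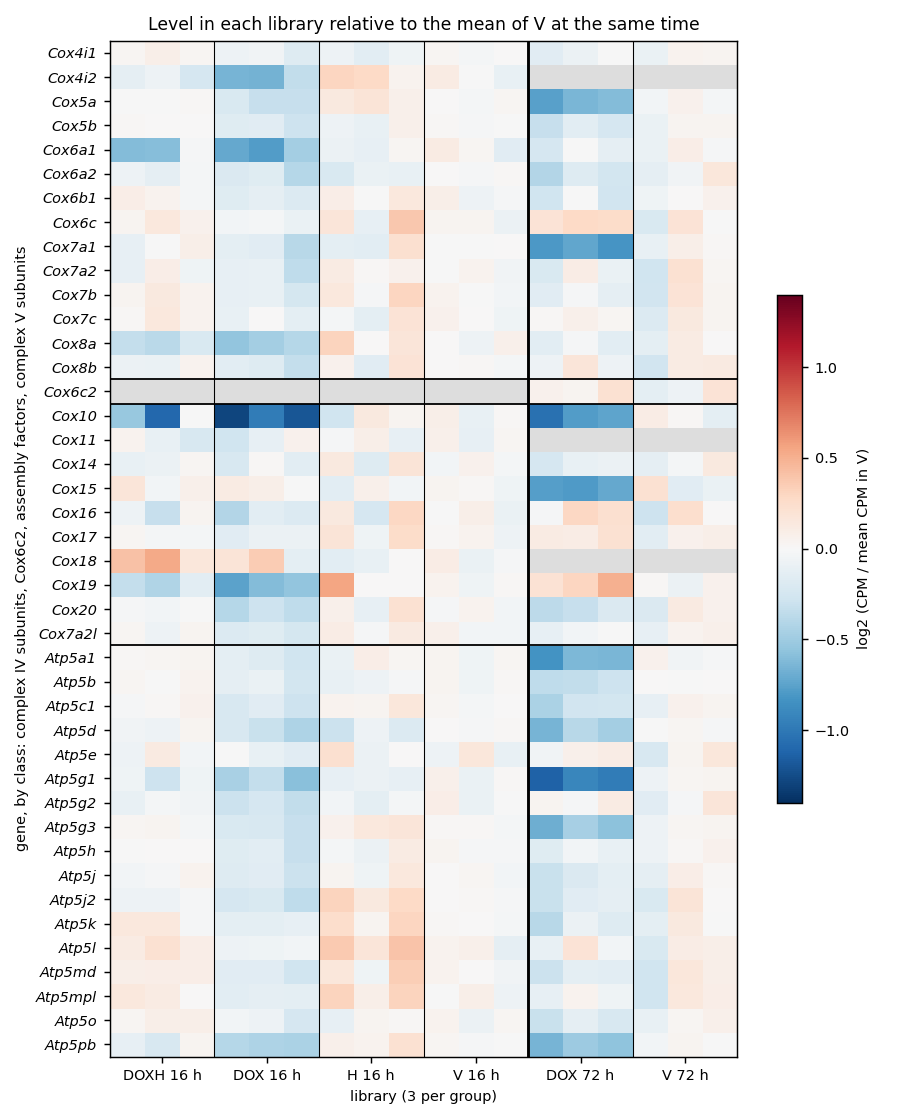
Heat map of the 42 genes (rows, by class) in the 18 libraries (columns, 3 per group). Colour is log2 of the CPM over the mean CPM in V of the same time, and grey marks a gene that is not in that table. The DOX columns at 16 h are blue in 39 of 41 rows on average, the DOXH columns lie close to white in most rows, and at 72 h the deepest blue sits in Atp5g1, Cox10, Cox7a1 and Cox15.

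At 72 h, 14 of 39 members fell in DOX hearts against V hearts and 1 rose (edgeR quasi-likelihood test, adjusted p under 0.05 over 7703 genes). Here 27.2% of all genes fell and 26.5% rose, 53.7% in all. At an unadjusted p under 0.05, 16 members were lower and 1 higher, or 17 of 39, against 4592 of all 7703 genes in either direction. The median log2 change was -0.18 over the members and 0.01 over all genes. Libraries did not overlap, with DOX below V, in 15 members and with DOX above V in 3, against 32.2% and 31.2% of all genes. The falls were 4 of 13 complex IV subunits, 7 of 17 complex V subunits and 3 of 8 assembly factors with TMM factors, and the 1 rise was Cox19. With library totals alone the counts were 2 lower and 8 higher for complex IV, 2 lower and 5 higher for complex V, and 2 lower and 5 higher for the assembly factors. With that scaling 5773 of all 7703 genes had an unadjusted p under 0.05 in either direction, and the median log2 change of all genes was 0.42. The 6 genes lower under both scalings at 72 h were Atp5g1, Cox10, Cox7a1, Cox15, Atp5a1 and Cox5a. Besides Cox19, those called higher with library totals were Cox4i1, Cox6a1, Cox6c, Cox7a2, Cox7b, Cox7c, Cox8a and Cox8b of complex IV. The others were Atp5e, Atp5g2, Atp5h, Atp5l and Atp5mpl of complex V, Cox7a2l, Cox14, Cox16 and Cox17 of the assembly factors, and Cox6c2. Among all called genes, 50.7% were lower with TMM factors and 12.5% with library totals, and at 16 h 51.6% and 20.1%.

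**Figure D2:**
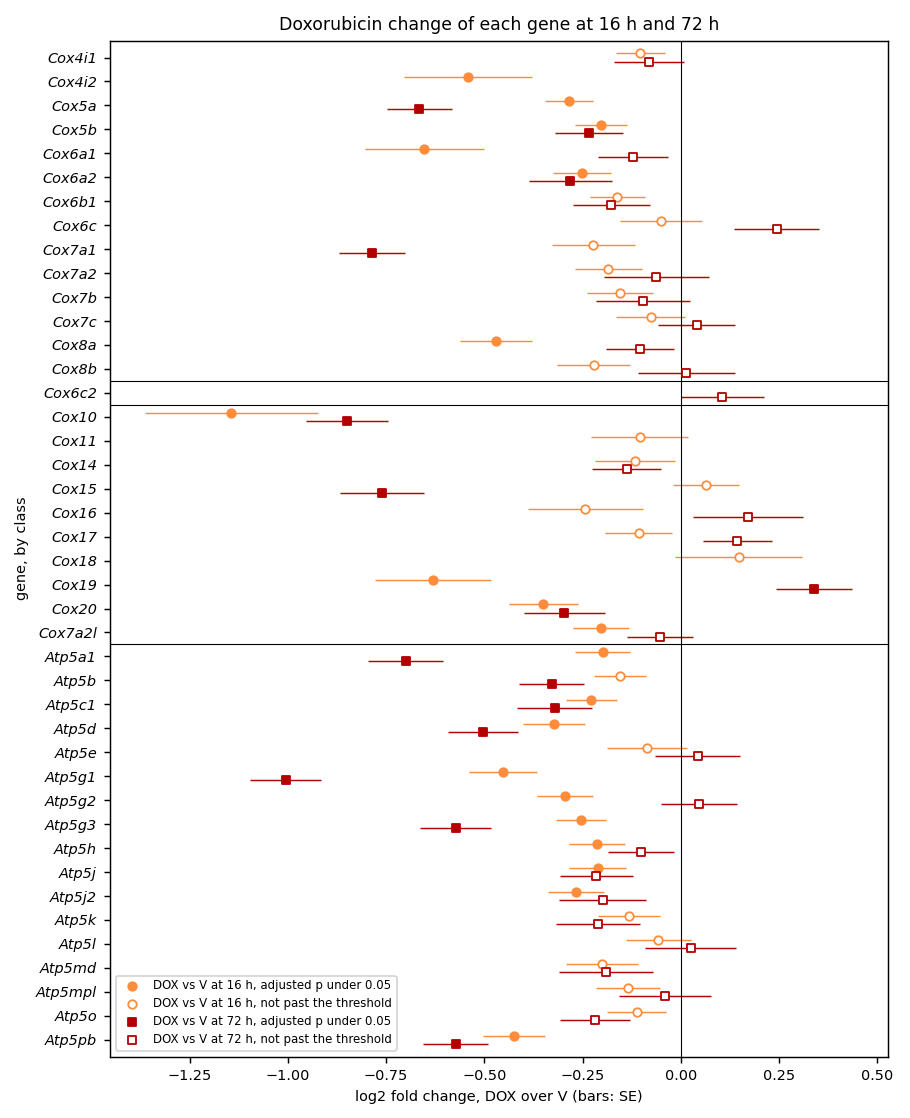
Log2 fold change of each gene in DOX over V at 16 h (circles) and 72 h (squares) with TMM factors, with the SE as bars. Filled symbols passed an adjusted p of 0.05. At 16 h 20 of 41 are filled, all left of 0. At 72 h 14 are filled left of 0, led by Atp5g1 at -1.005, and Cox19 is filled right of 0 at 0.34.

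Of the 38 members in both tables, 11 fell at both times with TMM factors, which is 57.9% of the 19 called lower at 16 h and 78.6% of the 14 at 72 h. Over all 7405 genes tested at both times, 933 fell at both, which is 62.5% of those lower at 16 h and 46.3% of those lower at 72 h. The 11 members were Cox5a, Cox5b and Cox6a2 of complex IV, Cox10 and Cox20 of the assembly factors, and Atp5a1, Atp5c1, Atp5d, Atp5g1, Atp5g3 and Atp5pb of complex V. Of these, Cox5b, Cox6a2, Cox20, Atp5a1 and Atp5c1 lost a call at 1 or both times when 1 library was left out. With library totals alone, only Atp5g1 and Cox10 were lower at both times. The tables were made separately, so CPM levels are compared within a time. In the fit over both times, 6 members had a more negative DOX change at 72 h than at 16 h and 3 a more positive one, of 38 tested. The same test called 18.8% of all genes lower and 16.8% higher, 35.6% in all. With library totals alone it called 4 members lower and 11 higher. With that scaling 3636 of all 7407 genes had an unadjusted p under 0.05, and 23.1% of all called genes were lower.

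Subunit c forms the rotating ring of complex V and is made from 3 genes, Atp5g1, Atp5g2 and Atp5g3. Their products differ in the peptide that directs them to the mitochondrion, which is removed, while the ring protein itself is the same. The last 75 codons of each coding sequence are shown because they encode the shared ring protein, and reads that fall inside this stretch can be told apart only by these bases. The sequences were read from the GENCODE transcripts of GRCm38, 5′ to 3′, with capitals at bases that differ from Atp5g1.
Atp5g1: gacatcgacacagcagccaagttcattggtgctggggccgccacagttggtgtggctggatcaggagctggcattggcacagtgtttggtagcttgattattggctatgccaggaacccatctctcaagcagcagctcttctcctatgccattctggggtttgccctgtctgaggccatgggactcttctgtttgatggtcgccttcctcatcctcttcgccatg
Atp5g2: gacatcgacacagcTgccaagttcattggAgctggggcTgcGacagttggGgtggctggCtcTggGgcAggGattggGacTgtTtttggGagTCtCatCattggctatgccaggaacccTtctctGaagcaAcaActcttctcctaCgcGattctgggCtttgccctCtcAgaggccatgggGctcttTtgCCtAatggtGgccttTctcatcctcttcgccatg
Atp5g3: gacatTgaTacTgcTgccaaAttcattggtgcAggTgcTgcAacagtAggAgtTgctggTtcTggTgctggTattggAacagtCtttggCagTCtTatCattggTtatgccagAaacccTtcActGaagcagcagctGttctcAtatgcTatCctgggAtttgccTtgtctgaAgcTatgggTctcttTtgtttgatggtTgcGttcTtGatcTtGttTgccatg
Atp5g2 differs from Atp5g1 at 34 of the 225 bases (84.9% identity), and Atp5g3 differs at 45 (80.0% identity). The longest run without a difference is 20 bases for Atp5g2 and 11 for Atp5g3. Expected counts were whole numbers for Atp5g3 in all 18 libraries and fractional for Atp5g1 and Atp5g2 in all 18, as where a read is split between loci, and the levels of these 2 genes are uncertain to that extent.

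Atp5g1 (chr11:96068852-96075670 in GRCm38, minus strand) had 565, 612 and 515 CPM in DOX hearts at 16 h, against 813, 723 and 779 CPM in V hearts. At 72 h it had 349, 406 and 389 CPM in DOX hearts, against 729, 778 and 789 CPM in V hearts. The DOX libraries lay below all V libraries at both times. Its log2 change was -0.45 ± 0.087 (SE; edgeR adjusted p = 0.00448) at 16 h and -1.005 ± 0.091 (edgeR adjusted p = 4.87e-05) at 72 h, and the value at 72 h is the most negative of the 39 members. The change differed between the times by -0.57 (edgeR adjusted p = 0.00229), and stayed negative and past the threshold with library totals at each time and between them.

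Atp5g3 (chr2:73908447-73911326, minus strand) had 555, 646 and 597 CPM in DOX hearts at 72 h, against 848, 912 and 915 CPM in V hearts, with no overlap. At 16 h it had 772, 762 and 712 CPM in DOX hearts, against 899.6, 899.8 and 879 CPM in V hearts, also apart. It fell by 0.25 on the log2 scale at 16 h (edgeR adjusted p = 0.0119) and by 0.57 at 72 h (edgeR adjusted p = 0.000762). Atp5g2 (chr15:102662864-102672352, minus strand) had 129, 136 and 126 CPM in DOX hearts at 16 h, against 170.1, 149.9 and 159 CPM in V hearts. The 72 h levels of Atp5g2 were 103, 99.0 and 109 CPM in DOX hearts, against 89.6, 99.1 and 112 CPM in V hearts, and here the groups overlapped. Atp5g2 thus fell at 16 h by 0.29 on the log2 scale (edgeR adjusted p = 0.0112), a call lost without V replicate 1 (lowest and highest change over all alternatives -0.34 and -0.097), and its log2 change at 72 h was 0.046 ± 0.10 (edgeR adjusted p = 0.703). At 72 h Atp5g2 was called higher with library totals alone (highest change over all alternatives 0.46). The difference between the times for Atp5g2 was 0.32, just short of the threshold (edgeR adjusted p = 0.0516). It passed under 8 of 22 alternatives, among them RLE and upper quartile factors, DESeq2 and library totals.

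The stretch upstream of Atp5g1 is shown with that of Cox10, because these 2 members had the largest falls at 72 h and at 16 h. Both come from RefSeq's promoter table on GRCm38.p6, minus strand, 5′ to 3′. Capitals mark matches, on either strand, to the letters CCAAT (bound by NF-Y) or CCGGAAG (bound by ETS factors). The Atp5g1 run, chr11:96075671-96075881, begins 250 bases before the start and ends 40 bases before it, where an annotated exon begins. The Cox10 run, chr11:64079473-64079722, covers the 250 bases before the start and overlaps an antisense transcript, 2810001G20Rik.
Atp5g1 upstream: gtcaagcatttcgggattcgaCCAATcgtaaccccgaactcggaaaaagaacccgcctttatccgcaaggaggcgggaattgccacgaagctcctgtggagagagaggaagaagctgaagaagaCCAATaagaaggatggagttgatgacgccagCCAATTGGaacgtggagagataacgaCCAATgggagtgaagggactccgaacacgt
Cox10 upstream: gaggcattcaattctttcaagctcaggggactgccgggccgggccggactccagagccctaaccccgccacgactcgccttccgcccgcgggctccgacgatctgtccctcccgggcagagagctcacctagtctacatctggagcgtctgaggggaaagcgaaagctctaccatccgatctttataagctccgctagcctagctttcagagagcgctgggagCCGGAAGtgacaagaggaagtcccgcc
The Atp5g1 stretch holds 5 matches to CCAAT, with 1 pair overlapping on opposite strands, and the Cox10 stretch holds 1 match to CCGGAAG. Of 33 members matched in that table, 48.5% held CCAAT and 39.4% held CCGGAAG within 250 bases before to 50 after the start, against 37.9% and 9.12% of 27025 promoters of the same length. For the NRF1 motif the shares were 9.09% and 0.977%, and for CAAGGTCA (ERR) 6.06% and 1.53%. For AAGATGGCG (YY1) they were 6.06% and 1.49%, for CACGTG (E-box) 12.1% and 7.24%, and for the MEF2 motif 0.0% and 0.163%. These are matches of letters on both strands, not sites shown to be bound.

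In the F1 head, where ATP is made, 3 of 5 subunits fell at 16 h and 4 of 5 at 72 h with TMM factors. Of all genes, 16.6% and 27.2% fell. With library totals alone only Atp5a1 at 72 h was lower. Atp5a1, the alpha subunit, had 1606, 1845 and 1831 CPM in DOX hearts at 72 h, against 2991, 2763 and 2832 CPM in V hearts. All DOX libraries were below all V libraries, and Atp5a1 fell by 38.5% (log2 change -0.70 ± 0.095, edgeR adjusted p = 0.000336). At 16 h Atp5a1 had 3139, 3055 and 2853 CPM in DOX hearts, against 3555, 3312 and 3519.9 CPM in V hearts, a log2 change of -0.20 (edgeR adjusted p = 0.0451) whose call was lost without any 1 of the 6 libraries. The change was more negative at 72 h by 0.52 (edgeR adjusted p = 0.00177). Its exons share bases with Haus1 on the other strand. Atp5b, the catalytic beta subunit, fell by 0.33 on the log2 scale at 72 h (edgeR adjusted p = 0.00849), with 2943 ± 79.8 CPM in DOX hearts and 3695 ± 19.1 CPM in V hearts (SD, n = 3 each). Its change at 16 h was -0.16 (edgeR adjusted p = 0.0876), and with library totals its change at 72 h was 0.088.

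The delta and gamma subunits belong to the central stalk that the c ring turns. Atp5d, the delta subunit, had 342, 322 and 297 CPM in DOX hearts at 16 h, against 402, 396 and 405 CPM in V hearts, without overlap. Its log2 change was -0.32 at 16 h (edgeR adjusted p = 0.0111) and -0.50 at 72 h (edgeR adjusted p = 0.00145). For Atp5c1, the gamma subunit, the changes were -0.23 and -0.32 (edgeR adjusted p = 0.0205 and 0.0178). Neither call held in every fit with 1 library left out. The first was lost without DOX replicate 1 or 3 or V replicate 1 or 3, and the second without DOX replicate 1 or V replicate 2 or 3. Atp5e, the epsilon subunit of the same stalk, passed at neither time with TMM factors, with changes of -0.087 and 0.043. With library totals alone, Atp5e was called higher at 72 h.

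In the peripheral stalk, which holds the head still, 3 of 4 subunits fell at 16 h and 1 of 4 at 72 h. Of all genes, 16.6% and 27.2% fell, so the 72 h count is near that share. Atp5pb, the b subunit, had 619, 606 and 599 CPM in DOX hearts at 16 h, against 830.2, 804 and 813 CPM in V hearts. The 72 h levels of Atp5pb were 562, 622 and 600.4 CPM in DOX hearts, against 864, 906 and 885 CPM in V hearts. The groups were apart at both times, and Atp5pb had the smallest p of all members at 16 h: its log2 change was -0.42 ± 0.078 (edgeR adjusted p = 0.00384), and -0.57 ± 0.083 at 72 h (edgeR adjusted p = 0.000487). Atp5h and Atp5j fell by 0.21 and 0.21 at 16 h (edgeR adjusted p = 0.0407 and 0.0427), calls that were lost without any 1 of the 6 libraries, and did not pass at 72 h with TMM factors. With library totals alone, Atp5h was called higher at 72 h. Atp5o, the subunit that ties the stalk to the head, had changes of -0.11 at 16 h and -0.22 at 72 h (edgeR adjusted p = 0.262 and 0.0654).

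Of the 5 small membrane subunits of complex V, Atp5j2 fell at 16 h, by 0.27 on the log2 scale (edgeR adjusted p = 0.0157), a call lost without V replicate 1 or DOX replicate 3. The other 4, Atp5k, Atp5l, Atp5md and Atp5mpl, passed at neither time with TMM factors. At 72 h 0 of 5 passed with TMM factors, against 53.7% of all genes. With library totals alone, Atp5l and Atp5mpl were called higher at 72 h. The log2 changes of the 5 at 72 h ran between -0.21 for Atp5k and 0.026 for Atp5l. No test set these subunits against the c ring or the head.

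Among the complex IV subunits outside the pairs of muscle and ubiquitous forms, Cox5a (chromosome 9), which faces the matrix, had the smallest p at both times. It had 461, 427 and 427 CPM in DOX hearts at 16 h, against 534, 524 and 544 CPM in V hearts. The 72 h levels of Cox5a were 295, 323 and 330.2 CPM in DOX hearts, against 489.6, 521 and 494 CPM in V hearts. No DOX library reached a V library at either time. Its log2 change was -0.28 ± 0.062 (edgeR adjusted p = 0.00726) at 16 h and -0.67 ± 0.083 (edgeR adjusted p = 0.000217) at 72 h, and the change differed between the times by -0.40 (edgeR adjusted p = 0.00387). Cox5b, another subunit on the matrix side, fell by 0.20 and 0.23 (edgeR adjusted p = 0.037 and 0.046), calls lost without any 1 of the 6 libraries at 16 h and without DOX replicate 1, the unnumbered DOX library, V replicate 2 or V replicate 3 at 72 h, and at 72 h its change was 0.19 with library totals. Cox4i1, Cox6b1, Cox6c, Cox7b and Cox7c passed at neither time with TMM factors. With library totals alone, Cox4i1, Cox6c, Cox7b and Cox7c were called higher at 72 h. Cox6c had the highest change of any complex IV subunit at 72 h, 0.24 (edgeR adjusted p = 0.0843), with 629, 668 and 659 CPM in DOX hearts, against 476, 627 and 549 CPM in V hearts. Cox6c2, annotated as a processed pseudogene, had a change of 0.11 (edgeR adjusted p = 0.418) and fractional counts in all 6 libraries. Cox4i2, a form of subunit 4 best known from lung, had low levels, with 2.73, 2.72 and 3.37 CPM in DOX hearts at 16 h, against 4.63, 4.26 and 3.98 CPM in V hearts. It fell by 0.54 (edgeR adjusted p = 0.0256), a call lost without DOX replicate 1 or 2 or V replicate 1 or 2 and by DESeq2 (adjusted p of 0.024 to 0.16 over all alternatives).

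The muscle and ubiquitous forms of 3 complex IV subunits were listed at both times. At 16 h the ubiquitous forms Cox6a1 and Cox8a had the most negative changes of the 6. Cox6a1 had 24.5, 23.5 and 29.2 CPM in DOX hearts, against 43.8, 41.3 and 36.2 CPM in V hearts, with no overlap and a log2 change of -0.65 ± 0.15 (edgeR adjusted p = 0.00939). Cox8a had 51.4, 54.2 and 57.2 CPM in DOX hearts, against 75.3, 71.6 and 78.7 CPM in V hearts, again apart, with a log2 change of -0.47 ± 0.091 (edgeR adjusted p = 0.00459). Of their muscle partners, Cox6a2 fell by 0.25 (edgeR adjusted p = 0.0233), and Cox8b did not pass, at -0.22 (edgeR adjusted p = 0.083). Cox8b had 247, 242 and 218 CPM in DOX hearts, against 275, 279 and 270.1 CPM in V hearts, without overlap. Cox6a2 had 869, 893 and 759 CPM in DOX hearts, against 1002, 991 and 1009.9 CPM in V hearts, and its call was lost without DOX replicate 3 or any 1 V library. At 72 h neither Cox6a1 nor Cox8a passed with TMM factors, with changes of -0.12 and -0.10. Both were called higher at 72 h with library totals alone. The 72 h change minus the 16 h change was 0.51 for Cox6a1 (edgeR adjusted p = 0.0143, but 0.053 with all 18 libraries in the fit) and 0.35 for Cox8a (edgeR adjusted p = 0.0264, lost without V replicate 1 or 3 at 16 h, or without DOX replicate 2 or V replicate 1 at 72 h).

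At 72 h the muscle form Cox7a1 fell. It had 211, 223 and 209 CPM in DOX hearts, against 343, 389.9 and 374 CPM in V hearts, so that all DOX libraries were below all V libraries. Cox7a1 fell by 42.0% (log2 change -0.79 ± 0.084, edgeR adjusted p = 9.68e-05), while Cox7a2, the ubiquitous form, had 231, 286 and 250.2 CPM in DOX hearts, against 219.6, 309 and 272 CPM in V hearts, overlapping, and a change of -0.062 (edgeR adjusted p = 0.708). At 16 h Cox7a1 had 516, 507 and 434 CPM in DOX hearts, against 567, 563 and 571 CPM in V hearts, a log2 change of -0.22 that did not pass (edgeR adjusted p = 0.121). The change of Cox7a1 was more negative at 72 h than at 16 h by 0.58 (edgeR adjusted p = 0.00133). Cox6a2 fell by 0.28 at 72 h (edgeR adjusted p = 0.047), a call lost without DOX replicate 1, the unnumbered DOX library, V replicate 2 or V replicate 3, and its change was 0.14 with library totals.

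A ratio of 2 genes within a library does not depend on the scaling. CPM is not divided by gene length, so only a shift of a ratio between groups can be read, and with 3 libraries against 3 no exact test can go below p = 0.10. The ratio of Cox7a1 over Cox7a2 was 0.913, 0.778 and 0.834 in DOX hearts at 72 h, against 1.56, 1.26 and 1.37 in V hearts, without overlap. At 16 h the same ratio was 2.38, 2.32 and 2.36 in DOX hearts and 2.42, 2.31 and 2.52 in V hearts, which overlapped. The ratio of Cox6a2 over Cox6a1 at 16 h was 35.4, 38.0 and 26.0 in DOX hearts and 22.9, 24.0 and 27.9 in V hearts, and that of Cox8b over Cox8a was 4.81, 4.46 and 3.81 in DOX hearts and 3.66, 3.89 and 3.43 in V hearts. The groups overlapped in both of these ratios. At 72 h the ratio of Cox6a2 over Cox6a1 was 20.7, 20.7 and 21.3 in DOX hearts and 22.8, 21.1 and 26.3 in V hearts, and that of Cox8b over Cox8a was 4.44, 4.77 and 4.44 in DOX hearts and 3.82, 4.19 and 4.56 in V hearts. Both overlapped at 72 h as well, and the mean of Cox8b over Cox8a was higher in DOX hearts, at 4.55, against 4.19 in V hearts, unlike that of Cox7a1 over Cox7a2.

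**Figure D3:**
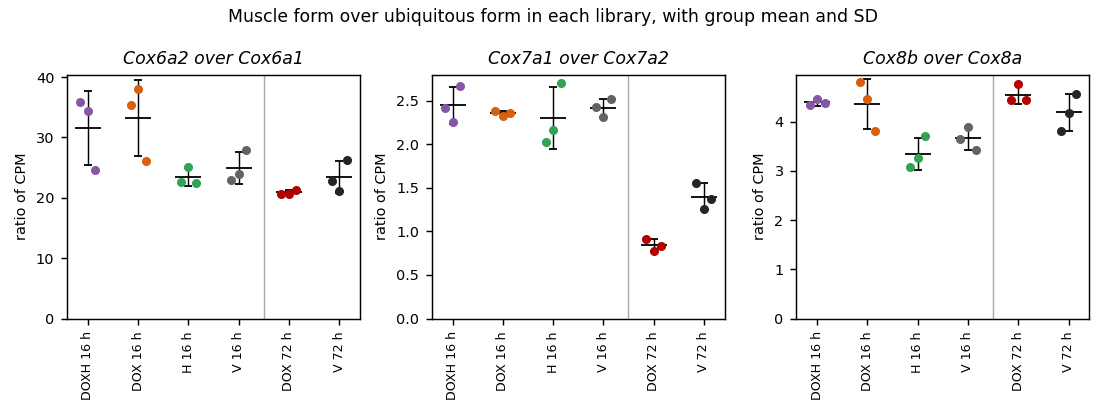
Ratio of CPM of the muscle form over the ubiquitous form of 3 complex IV subunits in each library (points), with the group mean and SD (bars), at 16 h left of the grey line and 72 h right of it. Cox7a1 over Cox7a2 lies between 0.778 and 0.913 in the DOX libraries at 72 h and between 1.26 and 1.56 in the V libraries.

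The assembly factors held the largest single fall at 16 h and the largest differences between times in either direction. Heme A is made in steps by Cox10, which adds a farnesyl tail to heme B, and Cox15, which oxidises the product. Cox10 (chr11:63962627-64079468, minus strand) had 23.4, 29.0 and 24.9 CPM in DOX hearts at 16 h, against 60.3, 53.2 and 57.5 CPM in V hearts. At 72 h it had 22.4, 26.8 and 27.7 CPM in DOX hearts, against 49.9, 46.9 and 41.9 CPM in V hearts. Its DOX libraries were below V at both times. Cox10 fell by 54.7% at 16 h (log2 change -1.14 ± 0.22, edgeR adjusted p = 0.00479) and by 44.5% at 72 h (log2 change -0.85 ± 0.10, edgeR adjusted p = 0.000208). Both calls held under all 18 alternatives run at 16 h and all 17 at 72 h. An antisense gene, 9630013K17Rik, overlaps exons of Cox10.

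Cox15 (chr19:43733254-43753000, minus strand) had 40.1, 39.4 and 37.0 CPM in DOX hearts at 16 h, against 38.3, 37.4 and 35.7 CPM in V hearts, which overlapped. At 72 h it had 16.7, 16.6 and 17.5 CPM in DOX hearts, against 33.3, 25.8 and 26.9 CPM in V hearts, which did not. The log2 change was 0.064 at 16 h (edgeR adjusted p = 0.578) and -0.76 ± 0.11 at 72 h (edgeR adjusted p = 0.000424). For Cox15 the change at 72 h minus that at 16 h was -0.84 ± 0.13 (edgeR adjusted p = 0.00044) and was called under all 22 alternatives. Exons of Cutc and Entpd7 lie over those of Cox15 on the other strand.

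Cox19, a small protein of the copper supply to complex IV, had opposite changes at the 2 times. It had 14.7, 16.2 and 16.8 CPM in DOX hearts at 16 h, against 25.5, 23.6 and 24.8 CPM in V hearts. At 72 h it had 22.2, 23.7 and 27.2 CPM in DOX hearts, against 19.5, 18.3 and 20.0 CPM in V hearts. The DOX libraries were all below V at 16 h and all above V at 72 h. Its log2 change was -0.63 ± 0.15 at 16 h (edgeR adjusted p = 0.00966; with library totals the sign was the same and the adjusted p = 0.059) and 0.34 ± 0.10 at 72 h (edgeR adjusted p = 0.0159; lost without V replicate 2). The difference between the times, 0.95 ± 0.13 (edgeR adjusted p = 0.000239), was the most positive of the 38 members and was also called under all 22 alternatives. Cox17, the copper chaperone upstream of the same step, had changes of -0.11 and 0.14 (edgeR adjusted p = 0.34 and 0.185), and Cox11, which hands copper to mt-Co1, had -0.10 at 16 h (edgeR adjusted p = 0.536).

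Cox20, a chaperone of the mitochondrially made subunit 2, had 30.4, 33.0 and 31.5 CPM in DOX hearts at 16 h, against 39.8, 41.8 and 39.3 CPM in V hearts, apart from each other. It fell by 0.35 at 16 h (edgeR adjusted p = 0.013) and by 0.30 at 72 h (edgeR adjusted p = 0.0351), where the groups overlapped and the call was lost without DOX replicate 1 or 2 or V replicate 2 or 3; exons of Hnrnpu overlap it. Cox7a2l, which links complex IV to complex III, had 163, 166 and 157 CPM in DOX hearts at 16 h, against 197, 181 and 182 CPM in V hearts, a log2 change of -0.20 (edgeR adjusted p = 0.0444) whose call was lost without any 1 of the 6 libraries. Cox14, Cox16, Cox17 and Cox18 did not pass with TMM factors at any time they were listed. With library totals alone, Cox14, Cox16 and Cox17 were called higher at 72 h.

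**Figure D4:**
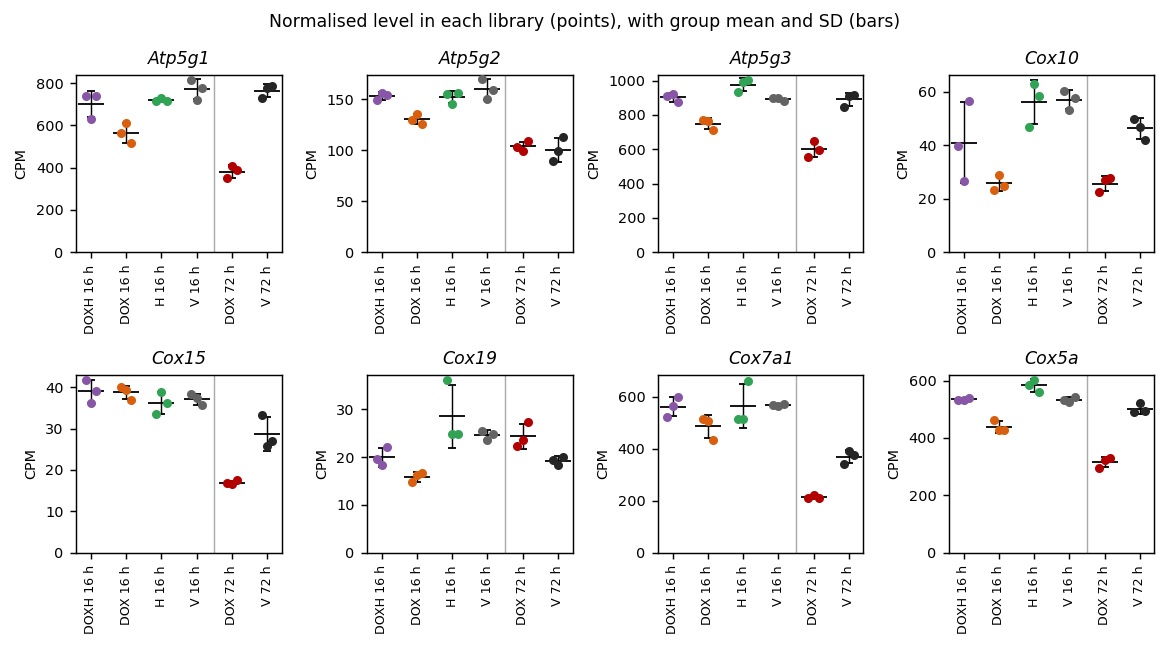
CPM of 8 members in each library (points), with the group mean and SD (bars), for the 4 groups at 16 h left of the grey line and the 2 groups at 72 h right of it. Atp5g1 and Cox10 are low in DOX at both times, Cox15, Cox7a1 and Cox5a are lowest in DOX at 72 h, and Cox19 is below V at 16 h and above V at 72 h.

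Summed over a class, complex IV subunits had 5917 ± 294 CPM in DOX hearts and 6673 ± 101 CPM in V hearts at 16 h (SD, n = 3 each), a difference of -11.3%. Complex V subunits had 12791 ± 619.6 CPM in DOX hearts and 14818 ± 371 CPM in V hearts, a difference of -13.7%. The assembly factors had 459 ± 16.4 CPM in DOX hearts and 545 ± 14.5 CPM in V hearts, a difference of -15.9%. At 72 h complex IV subunits had 5258 ± 278 CPM in DOX hearts and 5880.1 ± 483 CPM in V hearts (-10.6%). At 72 h complex V subunits had 10426 ± 529 CPM in DOX hearts and 13867 ± 329 CPM in V hearts (-24.8%), and the assembly factors had 456 ± 21.8 CPM in DOX hearts and 490.2 ± 24.5 CPM in V hearts (-7.02%). No p is given for a sum over members. As a share of all counts these differences became 1.44%, -1.20% and -3.67% at 16 h and 19.6%, 0.45% and 24.2% at 72 h for complex IV, complex V and the assembly factors. As a share of counts outside the mitochondrial genome they were 1.53%, -1.13% and -3.63% at 16 h and 6.84%, -10.2% and 11.04% at 72 h.

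**Figure D5:**
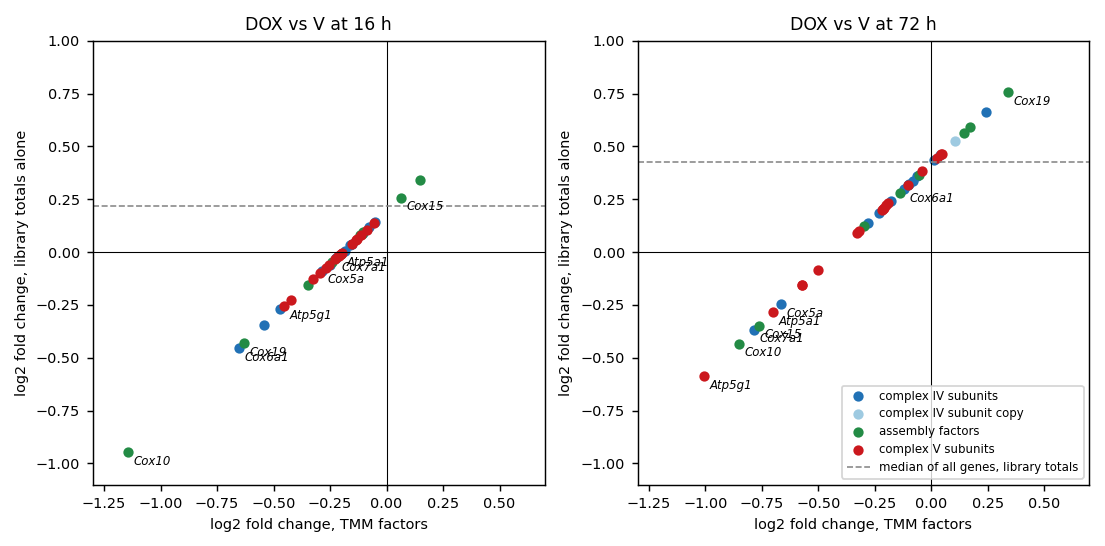
Log2 fold change of each member in DOX over V with TMM factors (x) and with library totals alone (y), at 16 h (left) and 72 h (right), coloured by class. The dashed line is the median of all genes with library totals, 0.22 at 16 h and 0.42 at 72 h. At 72 h 20 of 39 members lie above 0 and below the dashed line, and 9 lie below 0 under both scalings.

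Genes of the same 2 complexes that carry other names were read from fixed lists. The counts below are with TMM factors only. They stand against 16.6% of all genes that fell and 15.6% that rose at 16 h, and 27.2% and 26.5% at 72 h. Of 18 other complex IV assembly factors, 8 fell and 0 rose at 16 h, and of 14 listed at 72 h, 10 fell and 1 rose. At an unadjusted p under 0.05, 11 of the 18 passed at 16 h, against 4716 of all 10393 genes. Taco1, which aids translation of mt-Co1, changed by -0.62 at 16 h and -1.53 at 72 h (edgeR adjusted p = 0.0029 and 3.02e-05). Lrpprc, which stabilises mitochondrial mRNAs, had log2 changes of -0.64 and -0.997 (edgeR adjusted p = 0.00407 and 8.5e-05), and Pet100 was the rise at 72 h, by 0.66 (edgeR adjusted p = 0.00383). Of 5 complex V assembly factors, 3 fell at 16 h and 5 at 72 h; Atpaf1, which chaperones the beta subunit, changed by -0.66 and -0.92 (edgeR adjusted p = 0.00415 and 5.24e-05). Atpif1, the inhibitor of complex V, rose by 0.64 at 72 h (edgeR adjusted p = 0.00136) and had a change of -0.13 at 16 h. Cycs, the cytochrome c that feeds complex IV, changed by -0.42 and -0.74 (edgeR adjusted p = 0.00573 and 0.000312). Of the 5 subunits of these complexes made in the mitochondrion, 3 fell at 16 h and 4 at 72 h with TMM factors. As a share of all counts, these 5 took a mean of 15.4% in DOX hearts and 15.2% in V hearts at 16 h. At 72 h their mean share was 11.6% in DOX hearts and 14.1% in V hearts.

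Cardiomyocyte markers also fell in DOX hearts, with more negative medians than these genes at both times. Their summed level was 46612 to 49190 CPM in DOX hearts at 16 h, against 79062 to 88801 CPM in V hearts, and 29618 to 34909 CPM in DOX hearts at 72 h, against 67391 to 77209 CPM in V hearts. All 15 fell at 16 h with a median log2 change of -0.71, and 13 of 15 fell at 72 h with a median of -1.22, against medians of -0.20 and -0.18 for the Cox and Atp5 genes. Of all genes, 16.6% and 27.2% fell. The 72 h change minus the 16 h change had a median of -0.55 over these markers and 0.018 over the members. Endothelial markers summed to 3541 to 4599 CPM in DOX hearts at 72 h, against 2440.3 to 2592 CPM in V hearts, and macrophage markers to 466 to 569 CPM in DOX hearts, against 282 to 363 CPM in V hearts. Neutrophil markers (3 of 9 listed) summed to 26.4 to 133 CPM in DOX hearts, against 0.957 to 1.98 CPM in V hearts, and erythroid markers (5 of 9 listed) to 20.6 to 33.0 CPM in DOX hearts, against 1436 to 3523 CPM in V hearts, both at 72 h. The part of these cell types in the members' changes was not tested.

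No member passed the test with hesperitin alone. In H against V, edgeR called 0 of 41 members and 0% of all genes. At an unadjusted p under 0.05 there were 664 genes, with 4 members higher and 1 lower, and DESeq2 called 13 genes and limma voom 0, with 0 members in either. The smallest p belonged to Atp5l, a small membrane subunit of complex V, with 301, 262 and 309 CPM in H hearts, against 242, 246 and 214 CPM in V hearts. Its groups did not overlap, and its log2 change was 0.31 ± 0.083 (edgeR adjusted p = 0.556). Across members the H libraries lay above all V libraries in 7 and below in 3, against 8.04% and 7.53% of all genes. The H libraries were deeper, at 17664060 to 19869050 counts, against 10337722 to 11074450 in V.

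Hearts given both compounds were spread between DOX and V by all genes. The 3 DOXH libraries were spread on the first principal component of all genes at 16 h (60.8% of variance), at 8.28, 35.1 and -17.7 for replicates 1, 2 and 3. DOX libraries ran over 29.4 to 42.2, and V libraries over -20.7 to -18.0. In DOXH against DOX, edgeR called 0 of 41 members and 0% of all genes, with 27 members and 1958 genes at an unadjusted p under 0.05. DESeq2 called 390 genes, 10 of them members and all higher in DOXH, and limma voom called 0. The smallest adjusted p of a member was 0.13. All 41 members had a positive log2 change with TMM factors (median 0.21, against -0.01 over all genes), while 9 of 41 were negative with library totals, which moved the median of all genes by -0.16. Each DOXH library lay above each DOX library in 32 of 41 members and below in 0, against 10.1% and 8.72% of all genes.

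Single DOXH libraries decided the calls. Without DOXH replicate 2, the library nearest to DOX, 1554 genes and 8 members were higher or lower in DOXH than in DOX, and the 8 members were all higher: Cox10, Cox5a, Cox20, Atp5pb, Atp5g1, Atp5g3, Atp5c1 and Atp5d. Of the 20 members that fell in DOX, DOXH replicates 1, 2 and 3 lay above all 3 DOX libraries in 19, 18 and 20. Of all 1728 genes that fell in DOX, 83.4%, 44.5% and 96.6% did so, a share near that of the members for replicates 1 and 3. The members' median level in replicates 1, 2 and 3 was -0.056, -0.069 and -0.006 relative to the V mean on the log2 scale. Over the 1728 genes these medians were -0.30, -0.52 and -0.034. Relative to the DOX mean the members' medians were 0.23, 0.21 and 0.28, and those of the 1728 genes were 0.29, 0.082 and 0.54, so that all genes lay further above DOX than the members in replicates 1 and 3 and less far in replicate 2. These DOX libraries chose the genes, so the values describe where DOXH lay and carry no test.

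For example, Cox5a had 532, 531 and 540.3 CPM in DOXH hearts, against 461, 427 and 427 CPM in DOX hearts, with V at 534, 524 and 544 CPM. All DOXH libraries were above all DOX libraries and inside the V range, including replicate 2. Atp5pb had 752, 696 and 839.5 CPM in DOXH hearts, against 619, 606 and 599 CPM in DOX hearts, again above it in each library (log2 change 0.33 ± 0.078, edgeR adjusted p = 0.13). Cox10 followed the spread of the libraries instead, with 39.5, 26.7 and 56.6 CPM in DOXH hearts, against 23.4, 29.0 and 24.9 CPM in DOX hearts and 60.3, 53.2 and 57.5 CPM in V hearts. Its replicate 2 lay among the DOX libraries and its replicate 3 among the V libraries.

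In DOXH against V, edgeR called 0 of 41 members and 0% of all genes, with 1749 genes, 3 members lower and 1 member higher at an unadjusted p under 0.05. DESeq2 called 131 genes and 0 members, and limma voom called 0 genes. The lowest adjusted p was that of Cox8a, with 59.9, 57.7 and 65.1 CPM in DOXH hearts, against 75.3, 71.6 and 78.7 CPM in V hearts, apart from each other (log2 change -0.30 ± 0.091, edgeR adjusted p = 0.201). DOXH lay below V without overlap in 3 members and above in 4, against 9.84% and 9.4% of all genes. Without DOXH replicate 3, the library nearest to V, 1674 genes passed and Cox10, Cox6a1 and Cox8a were lower in DOXH. Cardiomyocyte markers summed to 55705 to 84370.1 CPM in DOXH hearts, against 46612 to 49190 CPM in DOX hearts, and their part in these values was not tested.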

How the data were processed

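Poly(A)-selected heart RNA was sequenced as single-end reads, per the labels' protocols and the design text. Expected counts, which are estimated and can be fractional, were deposited by the authors as 1 table per time; per the submitters' processing notes they used RSEM and DESeq2 on GRCm38 (mm10). Versions, annotation, strand setting and the gene filter behind the 10393 and 7723 genes are not stated. Labels place 24 samples in 8 groups of 3 and give all samples 1 batch. The 72 h table has 6 columns whose code matches no label; these were not used, so H and DOXH at 72 h were not analysed here, and a planned fit of all 72 h groups became a fit of 6 libraries. One DOX column at 72 h entered as a replicate without a number.

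Counts were rounded, scaled by TMM and filtered with filterByExpr (10393 genes kept at 16 h, 7703 at 72 h). Each comparison used edgeR 4.0.16 in R 4.3.3 (robust quasi-likelihood test). The 16 h fit held 12 libraries with 8 residual degrees of freedom, the 72 h fit held 6 with 4, and the fit of both times held 12 with 8 over the 7407 shared genes, with Benjamini-Hochberg adjustment over all genes and a threshold of 0.05. The SE is the absolute log2 change over the square root of F. Other settings tried were other factors (RLE, upper quartile), other filters (none, mean CPM of at least 5), other tools (DESeq2 1.42.0, voom in limma 3.58.1), glmTreat against a fold of 1.2, a replicate block, only the compared groups, and each library left out. Library totals alone, shares of all counts, mitochondrial genes left out before scaling, DOXH libraries left out, H libraries thinned and all 18 libraries in the fit of both times were added after seeing the data. The fits were tested on simulated counts. No 2 libraries agreed within sampling noise. The members, lists and tests were chosen with earlier results of these data known. Values in every library are given for up to 4 genes per class with the smallest p at each time, the isoform pairs, Cox4i2, members against their class and the clearest differences between times. Positions come from GENCODE on GRCm38, and the promoter table of RefSeq matched 33 of 42 members.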

Additional observations from a re-analysis of the deposited data

Results flagged for a closer look

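The DOX change differed between 72 h and 16 h in 9 members by the test of the difference itself (edgeR adjusted p under 0.05, 12 libraries, TMM factors; values are the log2 change at 72 h minus that at 16 h). It was more negative at 72 h by -0.84 for Cox15, -0.58 for Cox7a1, -0.57 for Atp5g1, -0.52 for Atp5a1, -0.40 for Cox5a and -0.34 for Atp5g3. It was more positive by 0.95 for Cox19, 0.51 for Cox6a1 and 0.35 for Cox8a. With library totals, Atp5g3 and Cox5a no longer passed, and the other 7 kept their call. The 2 tables were made separately, and time and table cannot be told apart.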

How the results depend on the processing

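In DOX against V and between the times, counts of members moved most with the scaling. With library totals alone, 4 members were lower and 1 higher in DOX against V at 16 h, 6 lower and 19 higher at 72 h, and 11 higher in the difference between times, where 23.1% of all called genes were lower, against 52.9% with TMM factors. Of all genes, 5307 at 16 h, 5773 at 72 h and 3636 between the times had an unadjusted p under 0.05 with library totals. At 72 h 20 members turned positive: Atp5b (0.088), Atp5c1 (0.098), Atp5h (0.32), Cox20 (0.12), Cox5b (0.19), Cox6a1 (0.30), Cox6a2 (0.14), Cox7a2l (0.37) and Cox8a (0.32), and also Atp5j, Atp5j2, Atp5k, Atp5md, Atp5mpl, Atp5o, Cox14, Cox4i1, Cox6b1, Cox7a2 and Cox7b (0.088 to 0.38 over the 20). At 16 h 15 uncalled members turned positive (0.0063 to 0.14), and in DOXH against DOX 9 turned negative, where library totals called 0 members. Summed class differences turned as shares of counts: complex IV to 1.44% of all and 1.53% of nuclear counts at 16 h and to 19.6% and 6.84% at 72 h, complex V to 0.45% of all counts at 72 h, and the assembly factors to 24.2% and 11.04% at 72 h. Complex V moved to -1.20% and -1.13% at 16 h and -10.2% of nuclear counts at 72 h, and the assembly factors to -3.67% and -3.63% at 16 h. Each of these scalings moves every gene of a library by 1 factor, and which of them is nearer to the RNA amounts was not tested.

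Against a fold of 1.2, 5 members were lower at 16 h, 9 lower and 0 higher at 72 h, and 1 higher between the times, because the threshold asks for a larger change. DESeq2 called 2 members higher at 72 h and 10 higher in DOXH against DOX; the cause was not tested. Leaving out 1 library gave 10 to 14 members lower at 16 h, 10 to 18 lower and 1 to 1 higher at 72 h, and 6 to 6 lower and 2 to 5 higher between the times. It gave 0 to 8 higher in DOXH against DOX, 0 to 3 lower in DOXH against V, and 0 to 0 in H against V. Over all genes, DOX against V had 1928 to 2409 calls at 16 h and 3397 to 4022 at 72 h, and 2204 to 2748 between the times. With all libraries these numbers were 3352, 4133 and 2640. In these fits 10 of 20 calls at 16 h, 10 of 15 at 72 h and 8 of 9 between the times were never lost.

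At 16 h correlations of same-numbered libraries (-0.42 to 0.25) lay within those of differently numbered ones (-0.43 to 0.53). At 72 h only 2 pairs carry the same number, with correlations of 0.12 and 0.25, against -0.20 to 0.00093 for the other numbered pairs. Whether the 72 h numbers pair libraries cannot be told from 2 pairs. With a replicate block, 15 members were lower at 16 h, 10 lower and 0 higher at 72 h, and 5 lower and 2 higher between the times, where Cox6a1 had an adjusted p of 0.070. The block fits at 72 h and between the times left out the DOX library without a number. There the block and the missing library cannot be told apart. RLE and upper quartile factors, voom, no filter, a mean CPM of at least 5, and leaving out mitochondrial genes or DOXH libraries kept the counts of members within 1.5 times.

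Depth and 3 libraries per group limit calls of small changes.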
